A study of Lactuca sativa with 53 samples.

Results

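LsERF085 is a gene of the lettuce AP2/ERF family, of which 156 members in the study's gene list were matched by identifier to rows of the Salinas table. It was followed as 1 row among 23292 genes in the table of the cultivar Salinas and 1 row among 23933 genes in the table of PI284702 and UC96US23. The gene was chosen by its measured values in heat, which lay above the control, and in later salt, which lay below it, so these values are given as a description and support nothing. The row is Lsat_1_v5_gn_5_131240.1, a gene on the reverse strand of linkage group 5, at bases 256814755 to 256815444 of the lettuce genome version 8. Its 2 exons, of 77 and 532 bases, hold 609 bases of coding length and are separated by an intron of 81 bases.

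AP2/ERF proteins are plant transcription factors that bind DNA through the AP2 domain, and the ERF (ethylene response factor) branch is known for roles in hormone and stress responses. The study's gene list places LsERF085 in group V of the ERF subfamily and gives the Arabidopsis gene AT1G15360 as its best match. AT1G15360 is WIN1, also called SHN1, which in Arabidopsis activates genes for cutin and wax, the polymers and lipids of the cuticle that limit water loss from the leaf. What LsERF085 itself does in lettuce was not measured in these data.

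The libraries came from 18-day-old soil-grown plants kept at 20 °C before treatment, and the tissue is given as aerial tissue in the labels and as leaf in the methods. Plants of Salinas, a crisphead lettuce, were held at 34 °C (heat), given 250 mM NaCl (salt) or left without water (drought) over 5 h, 24 h or 48 h, and plants at 0 h were the control of all 3 stresses, with 3 biological replicates in each of the 10 groups. Plants of PI284702 and UC96US23 were moved to 4 °C (cold) for 4 h, 24 h or 7 d and are set against warm-grown plants of the same cultivar, with 3 libraries in each group except warm-grown PI284702, which had 2. Controls were taken only at 0 h, so the effect of 5 h or 4 h of stress cannot be told apart from that of the hour of harvest. Plants at later times were also older than those at 0 h, most of all at 7 d. The methods give a lower light intensity during the stresses than during growth, and the lowest in the cold. Effects of age and light cannot be told apart from that of the stress either. The tissue could not be checked against leaf markers, because the row identifiers are paired with names only for the AP2/ERF genes.

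Values are counts per 1000000 reads (CPM), taken in Salinas relative to a scaled library size (scaled CPM). They were resolved into whole reads in every library. Salinas libraries held 19144717 to 29521313 reads on genes, with 1 read worth 0.0300 to 0.0619 scaled CPM, and the other libraries held 17570370 to 27896716 reads, with 1 read worth 0.0358 to 0.0569 CPM. LsERF085 is a gene of low level at this depth, with 1 to 114 reads per library in Salinas and 11 to 178 in the other cultivars. Among the salt libraries, the only ones placed on a common scale, 1 stood apart within its group. On a scale where the mean profile of 5 h of salt is at 0 and that of 48 h of salt is at 1, over 23231 genes, replicate 2 of 24 h of salt lay at 0.738, against 0.448 and 0.583 for replicates 1 and 3 of that group, so results that rest on it are also given without it.

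Under heat, LsERF085 was above the control in every library. At 5 h of heat its level was 3.49, 3.30 and 3.40 scaled CPM, against 1.43, 1.15 and 1.22 scaled CPM in the control. These values stand for 93 to 104 reads per heat library and 29 to 32 reads per control library. Of the 30 Salinas libraries, only 1 library of 48 h of drought, at 3.42 scaled CPM, lay above the lowest 2 of these 3. At 24 h of heat the level was lower again, at 1.61, 1.76 and 2.63 scaled CPM, while the 48 h libraries held 2.78, 2.47 and 2.85 scaled CPM. The group means were therefore 2.67, 1.57 and 2.12 times the control mean at 5 h, 24 h and 48 h. In the limma fit on log2(value + 0.5), heat minus control was 1.14, 0.48 and 0.85 at the 3 times (standard error 0.24 each), with no test because heat values chose the gene. The fitted difference understates the ratio of the means, as the added 0.5 is large beside a level near 1.

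Salt gave a level above the control at 5 h and below it at 24 h and 48 h. The 5 h libraries held 2.95, 2.32 and 3.25 scaled CPM, all above the highest control library at 1.43 scaled CPM. At 24 h the level was 0.977, 0.142 and 1.02 scaled CPM, all below the lowest control library at 1.15 scaled CPM, with 22, 3 and 23 reads. At 48 h only 4, 1 and 8 reads were counted, or 0.204, 0.0619 and 0.416 scaled CPM. The 13 reads of the 3 libraries at 48 h correspond to an exact Poisson 95% interval of 0.126 to 0.405 scaled CPM, which covers counting error only, and the mean was 0.179 times that of the control.

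Salt minus control was 0.91, -0.65 and -1.31 on the log2 scale at 5 h, 24 h and 48 h (standard error 0.24 each), again as a description. Replicate 2 of 24 h of salt carried much of the middle value, which was -0.24 without it. The step between 5 h and 24 h of salt was -1.55, and -1.15 without that library, while the step between 24 h and 48 h was -0.66, and -1.07 without it. With or without it, the 24 h salt libraries lay below both the 5 h salt and the control libraries. In bulk tissue, fewer cells that express the gene and less of its RNA per cell cannot be told apart.

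**Figure D1:**
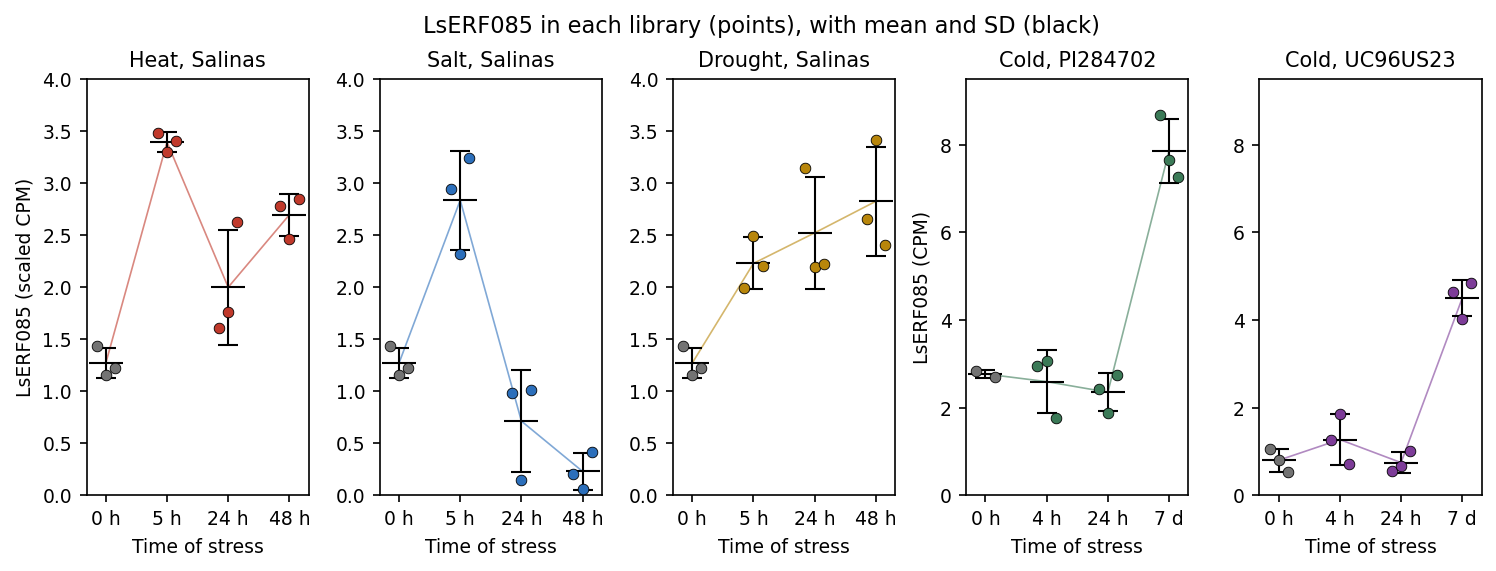
Level of LsERF085 in every library (points) against time of stress, in scaled CPM for Salinas and in CPM for PI284702 and UC96US23, with the group mean and SD in black and the 0 h group in grey. Heat libraries lie at 1.61 scaled CPM or above and salt libraries at 48 h at 0.416 scaled CPM or below, while the 7 d cold libraries lie apart from all earlier ones of their cultivar.

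The direct difference between heat and salt was larger at each later time. At 5 h, heat and salt libraries were close, at 3.30 to 3.49 against 2.32 to 3.25 scaled CPM, and heat minus salt was 0.23 on the log2 scale (95% interval -0.26 to 0.72, adjusted p = 0.414). At 24 h it was 1.13 (0.63 to 1.62, adjusted p = 0.000188), and at 48 h it was 2.16 (1.67 to 2.65, adjusted p = 7.85e-09), with a mean in heat 11.9 times that in salt. These p-values, from limma with Benjamini-Hochberg adjustment, describe the fit only, since the gene was picked with both stresses in view. A call here means an adjusted p of at most 0.01 and a log2 difference of at least 1. By that rule 5.89%, 11.1% and 21.2% of all genes were called higher in heat than in salt at 5 h, 24 h and 48 h, and LsERF085 was called at 24 h and 48 h. In the other direction 7.44%, 13.6% and 19.8% of genes were called at the 3 times. These shares depend on the scaling of the libraries: with each library scaled to 1000000 reads, 18.5% and 35.6% of genes were called higher in heat at 24 h and 48 h and 10.5% and 13.3% lower. The median of all genes then stood at 0.32 and 0.62, and heat minus salt of LsERF085 at 1.36 and 2.49, called at both times. The 24 h call was lost without replicate 2 of 24 h of salt (0.72, adjusted p = 0.00257) and without replicate 3 of 24 h of heat (0.95, adjusted p = 0.00267), where the difference fell under 1, and in a fit of the heat and salt groups alone (adjusted p = 0.0314).

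Few genes showed the pattern that chose LsERF085, within the family as among all genes. The place of LsERF085 among them follows from that choice and supports nothing. Of 152 AP2/ERF genes tested, 27 were called higher than the control at 1 or more times of heat, 38 were called lower at 1 or more times of salt, and 2 were both, LsERF085 and LsERF169. Over all 23231 genes tested, 1884 (8.11%) were called higher in heat, 5161 (22.2%) lower in salt and 223 (0.96%) both. LsERF169 belongs to group IX of the ERF subfamily, and its best match in the study's list is AT2G44840, the Arabidopsis gene ERF13. Its heat minus control was 0.46, 0.66 and 1.17 at 5 h, 24 h and 48 h, and its salt minus control was 0.10, -0.58 and -1.49. The highest heat value of LsERF169 thus came at 48 h and that of LsERF085 at 5 h.

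The choice of the gene named heat and salt values and not drought, but it was made with earlier results of these data known. The drought tests therefore cannot be taken as independent of that choice. All 9 drought libraries lay above all 3 control libraries. The level was 1.99, 2.49 and 2.20 scaled CPM at 5 h of drought, 3.15, 2.20 and 2.22 at 24 h, and 2.65, 3.42 and 2.41 at 48 h, against 1.15 to 1.43 scaled CPM in the control. Drought minus control was 0.62 at 5 h (adjusted p = 0.132), 0.76 at 24 h (adjusted p = 0.113) and 0.90 at 48 h (adjusted p = 0.00712), with a standard error of 0.24 each. At 48 h the adjusted p was under the threshold and the fitted size was under a log2 difference of 1, so no drought time was called. The group means were 1.75, 1.99 and 2.22 times the control mean, which the fitted differences understate, as in heat. By its own tests, the paper names LsERF085 among genes significantly raised in heat, salt, drought and cold, with cold data taken from another series. Those tests used edgeR, with a false discovery rate of 0.01 and a log2 change of at least 1. In the values here, salt lay above the control at 5 h only. Calls were rare under drought, at 0.542%, 0.0947% and 1.89% of all genes in the higher direction at the 3 times and 0.237%, 0.099% and 1.33% in the lower direction. No step between drought times passed the test, with 0.14 for 24 h minus 5 h (95% interval -0.35 to 0.63, adjusted p = 0.791) and 0.14 for 48 h minus 24 h (-0.35 to 0.63, adjusted p = 0.804). Heat, salt and drought are all set against the same 3 control libraries, so a low value in these would raise all of these differences at once.

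Set beside drought, heat was higher at 5 h and overlapped at the later times. Heat minus drought was 0.52, -0.28 and -0.05 on the log2 scale over the 3 times (standard error 0.24 each), as a description. Ordered by mean (± SD, n = 3 each), 5 h of heat was the highest Salinas group, at 3.40 ± 0.0942 scaled CPM, and its libraries did not overlap those of the next group. Below it, 5 h of salt at 2.84 ± 0.475, 48 h of drought at 2.83 ± 0.527, 48 h of heat at 2.70 ± 0.202, 24 h of drought at 2.52 ± 0.540, 5 h of drought at 2.23 ± 0.250 and 24 h of heat at 2.00 ± 0.551 scaled CPM each overlapped the next of these groups. The control followed at 1.27 ± 0.146 scaled CPM and overlapped neither neighbour. At the lower end, 24 h of salt at 0.712 ± 0.494 and 48 h of salt at 0.227 ± 0.178 scaled CPM overlapped each other.

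In the cold, LsERF085 was higher at 7 d in both cultivars. The choice of the gene did not name cold values, but earlier results of these data were known. The cold tests therefore cannot be taken as independent of that choice. In PI284702 the level at 7 d was 8.68, 7.65 and 7.26 CPM, against 2.84 and 2.70 CPM in the 2 warm-grown libraries. In UC96US23 it was 4.63, 4.03 and 4.84 CPM at 7 d, against 1.05, 0.806 and 0.528 CPM in warm-grown plants. In each cultivar the lowest 7 d library lay above every library of the other groups. Cold minus warm was 1.35 in PI284702 (standard error 0.25, adjusted p = 0.000169) and 1.97 in UC96US23 (standard error 0.23, adjusted p = 3.54e-07). Both were called, where 6.01% and 4.97% of all genes were called higher. Leaving out any single library of the groups compared kept both calls.

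At the shorter cold times no difference from warm-grown plants passed the test. PI284702 held 2.95, 3.06 and 1.76 CPM at 4 h and 2.41, 1.89 and 2.75 CPM at 24 h, with cold minus warm at -0.11 (95% interval -0.64 to 0.42, adjusted p = 0.835) and -0.21 (-0.74 to 0.32, adjusted p = 0.567). UC96US23 held 1.25, 1.85 and 0.703 CPM at 4 h and 0.549, 0.674 and 1.00 CPM at 24 h, with cold minus warm at 0.42 (-0.06 to 0.89, adjusted p = 0.165) and -0.06 (-0.53 to 0.42, adjusted p = 0.876). None was called, where 3.41% and 5.9% of all genes were called higher at 4 h and 24 h in PI284702 and 4.3% and 6.23% in UC96US23. Libraries of these groups overlapped those of warm-grown plants. The intervals leave room for changes of moderate size in either direction at these depths of 12 to 77 reads per library.

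Before the cold, the level was lower in UC96US23 than in PI284702. Warm-grown UC96US23 had 0.796 ± 0.263 CPM (SD, n = 3), against 2.77 ± 0.0983 CPM in warm-grown PI284702 (SD, n = 2). UC96US23 minus PI284702 was -1.35 on the log2 scale (standard error 0.25, adjusted p = 0.000328), called lower, as were 4.65% of all genes. With a pseudocount of 2 in place of 0.5 the difference was -0.77, under the size needed for a call. The response to cold was also compared between the cultivars as an interaction. UC96US23 minus PI284702 was 0.52 at 4 h (95% interval -0.19 to 1.23, adjusted p = 0.452), 0.15 at 24 h (-0.56 to 0.86, adjusted p = 0.878) and 0.61 at 7 d (-0.10 to 1.32, adjusted p = 0.401), and none was called, where 0.137%, 0.661% and 0.674% of all genes were in either direction, so a difference in response was not shown at these sample sizes. The mean at 7 d was 5.66 times the warm-grown mean in UC96US23 and 2.84 times in PI284702. At 7 d the order of the cultivars was the same as in warm-grown plants, with 4.03 to 4.84 CPM in UC96US23, against 7.26 to 8.68 CPM in PI284702. Reads of both cultivars were aligned to the genome of Salinas. Whether sequence differences from Salinas shift the counts of this gene between the cultivars was not tested.

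Of the 13 genes of group V, 9 were listed in the Salinas table and all 9 were tested there. LsERF080, LsERF084 and LsERF086 share the best Arabidopsis match of LsERF085. LsERF083 and LsERF088 have AT5G25190 as their match, which is ESE3, a factor raised by ethylene and salt in Arabidopsis. LsERF081, LsERF087 and LsERF090 have AT5G19790 as their match, which is RAP2.11, a factor of the response to low potassium in Arabidopsis. LsERF079, LsERF082, LsERF089 and LsERF091 had no row in either table used here, and LsERF087 and LsERF090 had none in that of PI284702 and UC96US23.

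In heat, the 3 genes that share the WIN1 match had lower values than the control, while LsERF085 had higher ones. LsERF080 was 3.49 to 5.89 scaled CPM at 5 h of heat, against 9.64 to 12.7 scaled CPM in the control, and heat minus control was -1.35, -1.28 and -1.30 at the 3 times, called lower at each. LsERF086 was 0.404 to 1.43 scaled CPM at 5 h of heat, against 2.23 to 2.82 scaled CPM in the control, and was called lower at 5 h (-1.14) but not at 24 h (-0.77) or 48 h (-0.47). LsERF084 was 2.92 to 5.05 scaled CPM at 5 h of heat, against 5.96 to 7.30 scaled CPM in the control, and its differences of -0.81, -0.64 and -0.72 did not reach a log2 difference of 1. None of these ranges at 5 h overlapped that of the control, though differences were common at this time. Of all 23231 genes tested, 5612 were lower than the control at an unadjusted limma p under 0.05. In LsERF080 and LsERF084 the highest of the 5 h heat values, 5.89 and 5.05 scaled CPM, came from replicate 3.

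Ratios within a library describe how LsERF085 stood to these genes, and since its heat and salt values chose it, they restate that choice in part and support nothing. The log2 ratio of LsERF085 to LsERF080 was -0.28 at 5 h of heat, against -2.77 in the control, a change of 2.49 (pooled SD 0.355, n = 3 each). The same change was 1.95 against LsERF084 (pooled SD 0.317) and 2.28 against LsERF086 (pooled SD 0.418). The ratios at 5 h of heat did not overlap those in the control for any of the 3 genes. The ratio to LsERF080 and LsERF084 was also higher in salt than in the control. To LsERF080 it was -1.33, -0.57 and 0.06 at 5 h, 24 h and 48 h of salt, against -2.77 in the control. To LsERF084 it was 0.31, -0.86 and 0.30, against -2.02 in the control, though the 48 h ratios rest on few reads. The ratio to LsERF086 was -0.997, -1.65 and -1.23 in salt, against -0.78 in the control, and only at 24 h did its libraries lie wholly below the control. Per kilobase of coding length, LsERF085 averaged 5.58 scaled CPM at 5 h of heat, against 2.09 in the control. LsERF080 averaged 7.24 scaled CPM per kilobase at 5 h of heat, against 19.3 in the control, LsERF084 averaged 6.19, against 11.2, and LsERF086 averaged 1.61, against 4.37. LsERF085 was thus the lowest of the 4 in the control and above LsERF086 at 5 h of heat.

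**Figure D2:**
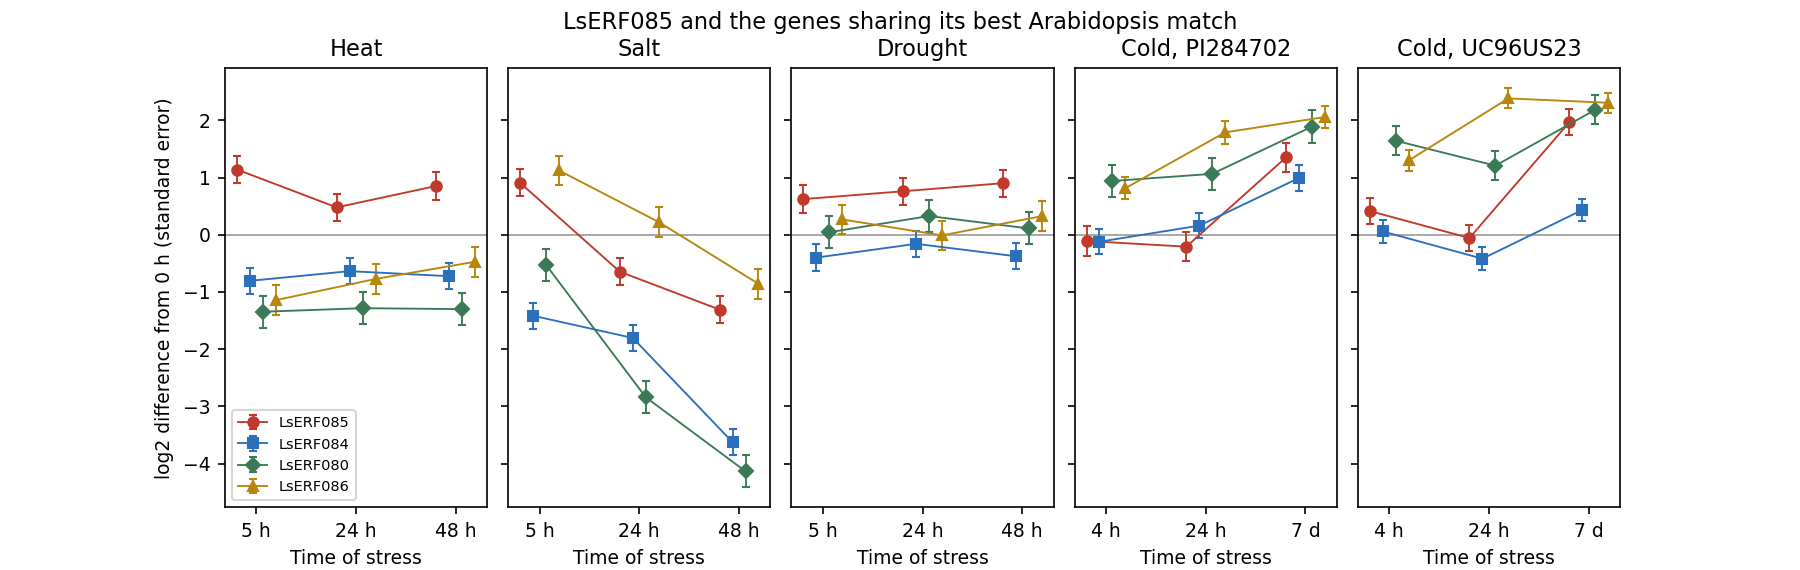
Log2 difference from the 0 h group (points, with the standard error of the fit as bars) against time of stress for LsERF085 and the 3 genes that share its best Arabidopsis match, in heat, salt and drought (Salinas) and in cold (PI284702 and UC96US23). In heat LsERF085 is at 0.48 to 1.14 and the other genes are below 0, and at 48 h of salt LsERF080 and LsERF084 are at -4.14 and -3.63.

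At 48 h of salt, 7 of the 8 other tested genes of group V lay below the control and 4 of them were called, where 21.7% of all genes were called lower. Of 151 AP2/ERF genes other than LsERF085, 70 lay below the control, and the median of all genes was -0.01. LsERF080 was called lower at 24 h and 48 h (-2.84 and -4.14), with 0.102 to 0.247 scaled CPM at 48 h of salt, against 9.64 to 12.7 scaled CPM in the control. LsERF084 was called lower at all 3 times (-1.42, -1.80 and -3.63), with 0 to 4 reads per library at 48 h. At so few reads these fitted values depend on the added 0.5 and give no bound on the fold. LsERF081 was called lower at 24 h and 48 h (-2.69 and -3.47), and LsERF088 at 48 h (-1.32). LsERF086, like LsERF085, was above the control at 5 h of salt, where it was called higher (1.12), and its later values of 0.22 and -0.86 were not called. LsERF087 went the other way, with 5.88 to 6.39 scaled CPM at 48 h of salt, against 0.314 to 0.721 scaled CPM in the control, and was called higher at 24 h and 48 h (1.68 and 2.70).

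Counted without LsERF085, 8 genes of group V were tested in Salinas. At 5 h, 24 h and 48 h of heat, 3, 1 and 1 of them were called lower, where 2.36%, 5.54% and 8.23% of all genes were, and 0, 0 and 1 were called higher, where 3.67%, 4.86% and 5.85% of all genes were. The genes called lower were LsERF080 at each time and LsERF081 and LsERF086 at 5 h. LsERF081 at 5 h of heat was 2.41 to 6.88 scaled CPM, with the highest value in replicate 3. This range overlapped that of the control, at 6.36 to 10.2 scaled CPM. LsERF087 was the gene called higher, at 48 h (1.44), and at 5 h and 24 h it was at 0.95 and 0.99, just under the size needed. At each of those earlier times 1 gene was higher at an unadjusted p under 0.05, and edgeR's test called 1 higher. At 5 h, 24 h and 48 h of salt, 1, 3 and 4 were called lower, where 1.71%, 13.9% and 21.7% of all genes were, and 1 was called higher at each time, where 4.67%, 15.3% and 21% were. With each library scaled to 1000000 reads, 18.8% and 32.4% of all genes were called lower in salt at 24 h and 48 h and 12.5% and 14.6% higher. The median of the 8 at 48 h of salt was -1.09, against -0.01 over all genes. None of the 8 was called under drought by limma or by edgeR, and at an unadjusted p under 0.05 limma found 0, 0 and 1 of them higher and 0 lower at the 3 times, with all differences between -0.40 and 0.51. These counts rest in part on single libraries: without replicate 1 of 5 h of heat, 1 gene (LsERF080) in place of 3 was called lower over the heat times, and without replicate 1 of 5 h of salt, 1 gene in place of 2 was called higher over the salt times.

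**Figure D3:**
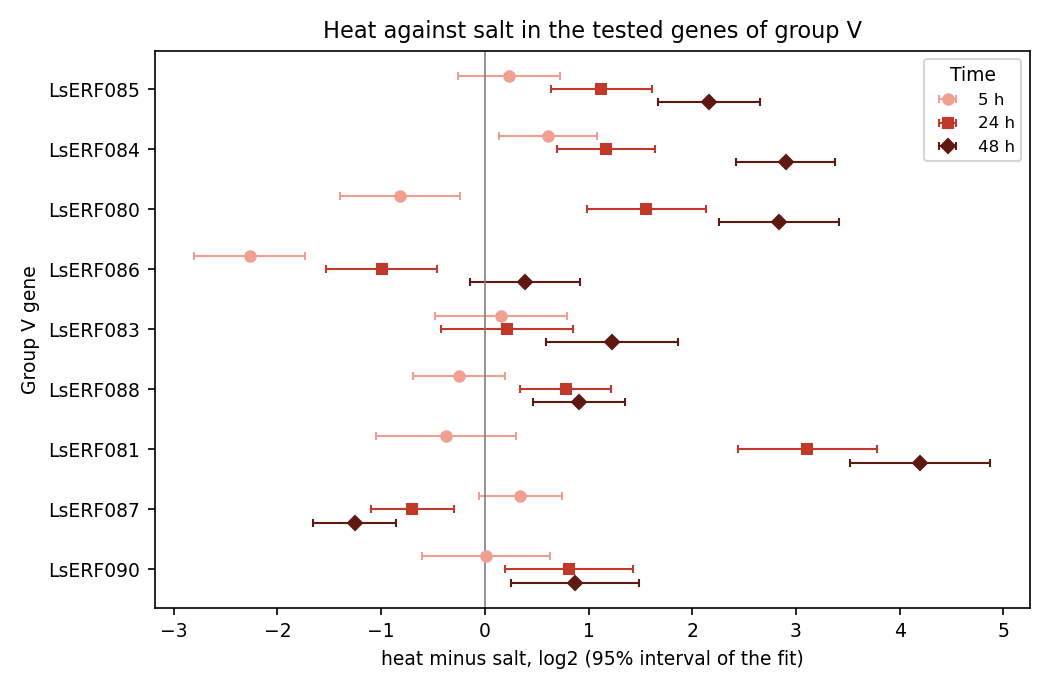
Heat minus salt on the log2 scale (points, with the 95% interval of the fit as bars) at each of the 3 times, in the 9 tested genes of group V. LsERF085 runs as 0.23, 1.13 and 2.16 over the 3 times, and LsERF080, LsERF081 and LsERF084 reach 2.84, 4.20 and 2.90 at 48 h while LsERF087 is at -1.26.

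Heat minus salt at 48 h was therefore positive in LsERF085, which was chosen on such values, and in 7 of the 8 other genes. Over all genes the median difference was 0.08, and 68 of 151 AP2/ERF genes other than LsERF085 were above 0. In group V the values behind a positive difference differed by gene. In LsERF085 heat lay above the control and salt below it. In LsERF080 and LsERF084 both stresses lay below the control, with salt the lower. In LsERF081 heat at 48 h was 10.9 to 17.9 scaled CPM, against 6.36 to 10.2 scaled CPM in the control, and this heat minus control of 0.72 was not called.

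In the cold table, 5 genes of group V other than LsERF085 were tested. LsERF080 and LsERF086 were called higher in both cultivars, at 24 h and 7 d in PI284702 and at 4 h, 24 h and 7 d in UC96US23, so 2 of 5 were called higher at 24 h and at 7 d in each, where 5.9% and 6.01% of all genes were in PI284702 and 6.23% and 4.97% in UC96US23. At 24 h, LsERF086 had a cold minus warm of 1.79 in PI284702 and 2.38 in UC96US23, and LsERF080 had 1.06 and 1.21, against -0.21 and -0.06 for LsERF085. At 7 d the values were 2.06 and 2.31 for LsERF086, 1.89 and 2.18 for LsERF080, and 1.35 and 1.97 for LsERF085. LsERF084 was not called, with 0.99 in PI284702 and 0.43 in UC96US23 at 7 d. LsERF083 and LsERF088 were also not called at any cold time. LsERF081, at no more than 0.182 CPM in any of these libraries, was too low to test.

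Genes of like profile were sought by Pearson's r with LsERF085 over the 10 Salinas group means of log2(value + 0.5), among 14646 genes whose group means spanned at least 1. These values are descriptions over points that share the control and the stress libraries. High values were common, as 20.0% of these genes had r above 0.8 and 23.6% had r below -0.8. The most alike rows were Lsat_1_v5_gn_4_108900.1 (r = 0.98) and Lsat_1_v5_gn_7_49581.1 (r = 0.97), and the least alike were Lsat_1_v5_gn_6_72700.1 and Lsat_1_v5_gn_9_114940.1 (r = -0.98 each), none of which is annotated by name in the sources used here.

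Within the AP2/ERF family, 134 genes spanned at least 1, and LsERF024 (r = 0.93), LsERF048 (r = 0.89) and LsAP2.26 (r = 0.88) were the most alike. LsERF024 and LsERF048 are DREB genes of group III that share AT5G11590, the Arabidopsis gene TINY2, as best match, and LsAP2.26 is a gene of the AP2 subfamily. At 5 h of heat LsERF024 was 10.6 scaled CPM, close to the 9.45 scaled CPM of the control, and its level at 48 h of salt was 3.13 scaled CPM. LsERF048 was 53.5 and 4.04 scaled CPM in those stress groups, against 49.9 scaled CPM in the control, and its rank correlation with LsERF085 was 0.44. LsAP2.26 was 11.7 and 6.26 scaled CPM in the same groups, against 9.57 scaled CPM in the control, and 15.3 scaled CPM at 48 h of drought. The least alike were LsRAV.3 (r = -0.95) and LsERF157 (r = -0.95), which were low at 5 h of heat and high at 48 h of salt. Their best matches are the Arabidopsis genes RAV1, a repressor of growth, and ERF1, a factor of ethylene and jasmonate signalling. LsRAV.3 was 31.6 and 208.9 scaled CPM in those stress groups, against 60.5 scaled CPM in the control. LsERF157 was 1.69 and 83.4 scaled CPM, against 5.96 scaled CPM in the control. In the 8 groups of the cold table, the same r was 0.03 for LsERF024, 0.20 for LsERF048 and 0.62 for LsAP2.26. It was -0.16 for LsRAV.3 and -0.40 for LsERF157. All were nearer to 0 than in Salinas. The genes were picked for extreme r in Salinas, so values nearer to 0 elsewhere can follow from that choice alone.

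**Figure D4:**
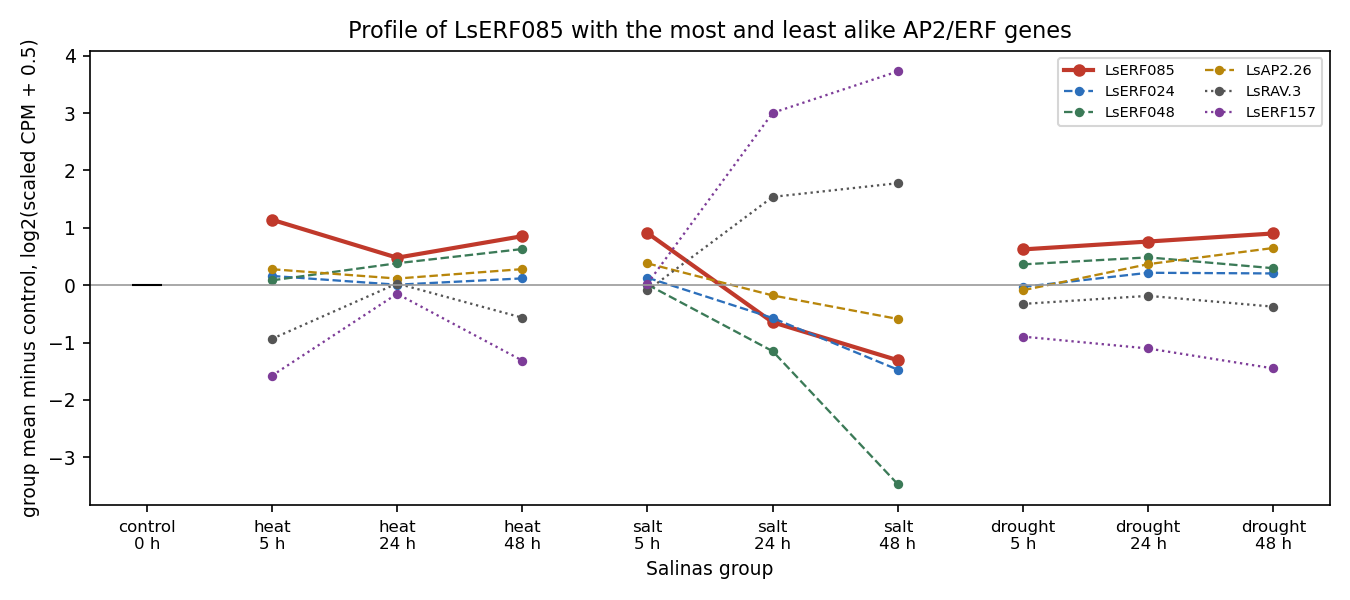
Group mean minus control mean of log2(scaled CPM + 0.5) in the 10 Salinas groups for LsERF085 (thick line), the 3 AP2/ERF genes of highest r (dashed) and the 2 of lowest r (dotted). LsERF085 stands above the other dashed profiles at 5 h of heat, and LsRAV.3 and LsERF157 run opposite to it at 5 h and 48 h of heat and in the later salt groups.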

How the data were processed

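The authors aligned reads to the lettuce genome version 8 with STAR 2.5.2, used featureCounts for reads per gene, and deposited CPM for PI284702 and UC96US23. For Salinas the authors deposited a signal, CPM relative to rescaled library totals (column sums of 815104 to 1273638). The scaling method is not given in the sources used here. All values were whole reads within 0.02 read once the step of each library was divided out (100% of values), and these gave depths and the values for edgeR.

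Genes that reached 0.5 in 2 or more libraries were tested (23231 and 23443) with limma 3.58.1 (R 4.3.3, eBayes with trend) on log2(value + 0.5), 1 fit per table, with Benjamini-Hochberg adjustment within each contrast. The design had assumed CPM in both tables, and its test was kept. An exact permutation test of 3 against 3 libraries cannot go below 0.1, so none was used. Replicates differed by more than counting noise (chi-square per gene 3.60 to 73.7). On simulated reads, limma recovered 196 and edgeR 198 of 200 genes changed in 5 h of heat, among 22801. False calls numbered 2 and 1. Recovery was counted over all 200 genes together, and recovery at the low reads and small differences of LsERF085 was not tested.

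Genes were named by rule: LsERF085, group V, and by r the 2 highest and 2 lowest rows and the 3 highest and 2 lowest AP2/ERF genes. LsERF169 was named after its values were seen, as were the steps between 24 h and 7 d of cold. The gene, lists and tests were chosen with earlier results of these data known. Group and match assignments are from the study's gene list. The settings varied were the pseudocount (0.1 or 2), the filter (none), median centring, scaling to 1000000 reads, the compared groups alone, a replicate block, edgeR 4.0.16 and leaving out each library. Figures used matplotlib 3.10.9.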

Additional observations from a re-analysis of the deposited data

Results flagged for a closer look

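LsERF085 changed sides of the control within the salt series: all 3 libraries at 5 h lay above all 3 controls and all 3 at 24 h lay below them. On the log2 scale 24 h minus 5 h was -1.55, and -1.15 without replicate 2 of 24 h of salt. Without that library, 24 h of salt minus control was only -0.24. Replicates 1 and 3 of 24 h held 22 and 23 reads, against 29 to 32 reads in the controls. This difference between the times was not tested, because salt values chose the gene.

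In the cold series, the 7 d libraries moved away from those of 24 h in both cultivars. The step between 24 h and 7 d was 1.56 in PI284702, with 7.26 to 8.68 CPM at 7 d, against 1.89 to 2.75 CPM at 24 h. In UC96US23 the step was 2.02, with 4.03 to 4.84 CPM at 7 d, against 0.549 to 1.00 CPM at 24 h. Both steps were picked after the values were seen and were not tested.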

How the results depend on the processing

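No direction changed for a called value. Heat minus salt at 24 h lost its call with a pseudocount of 2 (0.57), in a fit of the compared groups alone (1.13) and without single libraries (range 0.72 to 1.34). With a pseudocount of 2 in place of 0.5, heat minus control was 0.72 at 5 h and 0.52 at 48 h, salt minus control was 0.56, -0.29 and -0.56 at 5 h, 24 h and 48 h, the salt steps were -0.85 (24 h minus 5 h) and -0.27 (48 h minus 24 h), warm UC96US23 minus PI284702 lost its call (-0.77), and the cold steps from 24 h to 7 d were 1.18 in PI284702 and 1.25 in UC96US23. With 0.1, salt minus control was -1.04 at 24 h and -2.21 at 48 h, the salt steps were -2.14 and -1.17, and the UC96US23 step to 7 d was 2.48. With edgeR's quasi-likelihood test on whole reads, salt minus control at 48 h was -2.47, the salt steps were -2.01 and -1.62, and the UC96US23 step to 7 d was 2.45. Leaving out 1 library gave -0.86 to -0.24 for salt minus control at 24 h, -1.77 to -1.15 for the step from 5 h to 24 h and -1.07 to -0.45 for the step from 24 h to 48 h.

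Among the other genes of group V, a pseudocount of 2 gave 0 called higher and 1 lower in heat and 1 higher in salt, a fit of the compared groups alone gave 1 lower in heat, and leaving out 1 library gave 1 to 4 lower in heat and 1 to 2 higher in salt. The change in log2 ratio at 5 h of heat was 1.84 for LsERF080, 1.35 for LsERF084 and 1.36 for LsERF086 with a pseudocount of 2, and 2.84 for LsERF086 with 0.1. Scaling each library to 1000000 reads put the median of all genes at -0.51 for salt minus control at 48 h, where LsERF085 was at -1.56. In drought at 48 h the adjusted p ran between 0.00131 and 0.0485 over all alternatives, with no call.

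The replicate number as a block changed no call (heat minus salt at 24 h, 1.13). Samples of the same number mostly did not deviate together. In Salinas the median r was -0.01 (-0.28 to 0.32, 135 pairs), and in the other cultivars it was 0.03 (-0.20 to 0.22, 77 pairs). Some pairs did, as 17.0% and 20.8% of them had r over 0.1. At 1 to 8 reads per library, the size of the fall at 48 h of salt is limited by depth.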
